A study of Mus musculus with 16 samples.

Results

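The data described here are the 8 male hippocampal libraries of a series of 16, with 4 High Activity males (libraries 5 to 8) and 4 Low Activity males (libraries 13 to 16), chosen by the sex and strain in their labels, and all genes with a count were used (29961 of the 31960 genes in the series had a count in a male). Each library came from the hippocampi of 1 mouse aged 70 days, and no agent or engineered allele was part of either group. The High Activity and Low Activity strains go back to a single cross of BALB/cJ and C57BL/6 mice, whose offspring were bred for many generations from the most or the least active animals in the open field and were then inbred. One inbred line stood for each direction of selection, so a gene difference tied to open-field behavior and a difference fixed in a line by chance cannot be told apart.

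The hippocampus is a cortical structure for learning, memory and the appraisal of threat, built from dentate granule cells, the pyramidal cells of areas CA1 to CA3, inhibitory interneurons and glia. Mice that stay still in a bright open field are used as a model of high anxiety-like behavior. The results also concern a pair of gene programs that brain tissue switches on within minutes to hours. Immediate early genes are transcribed after neurons fire and encode transcription factors (the Fos, Jun, Egr and Nr4a families) and proteins that act at synapses (Arc, Homer1, Bdnf), while heat shock genes encode chaperones that refold damaged proteins and are switched on by the factor HSF1. In whole tissue, fewer cells of a type and less RNA per cell cannot be told apart.

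Total counts were 20815456 to 28760896 in High Activity males and 25100148 to 27310990 in Low Activity males, and 23108 to 24134 genes were detected per male library. Levels are given as counts per 1000000 counts of the library (CPM), after scaling for composition, and differences as the High minus Low log2 fold change with its standard error (SE), so that positive values mean higher in High Activity males. Calls rest on the quasi-likelihood test in edgeR, with p-values adjusted by Benjamini-Hochberg over 31960 genes and a threshold of 0.05. Ddx3y, an RNA helicase gene of the Y chromosome, was at 56.5, 61.3, 60.2 and 59.4 CPM in High Activity males and 57.0, 59.0, 59.7 and 55.6 CPM in Low Activity males, as the male label requires. Defining genes of the hippocampus were present in every library, with summed levels of 613 to 741 CPM in High Activity males and 624 to 652 CPM in Low Activity males for 8 markers of CA1, and 551 to 670 CPM against 614 to 739 CPM for 10 markers of dentate granule cells.

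Several male libraries held RNA of tissues other than the hippocampus, unevenly between the groups. Gpr151, a receptor gene that marks the habenula, a small nucleus just below the hippocampus, was at 2.50, 12.3, 0.492 and 10.9 CPM in High Activity males 5, 6, 7 and 8, against 0.597, 0.472, 0.222 and 0.810 CPM in Low Activity males 13 to 16. Libraries 6 and 8 were thus the high ones, and the groups overlapped through library 7. The summed level of 10 habenula markers was 41.3, 96.8, 34.3 and 97.4 CPM in High Activity males and 37.0, 31.7, 31.8 and 28.8 CPM in Low Activity males, and libraries 6 and 8 were the highest of the 8 for all 10 markers. Of these markers 8 rose, with a median log2 fold change of 2.05, against 5.18% called higher among protein-coding genes of at least 1 CPM. The number was 2 without libraries 6 and 8 (median 0.58), 5 without library 8 alone, 3 without libraries 6, 8, 14 and 16 and 3 in limma-voom. Markers of the thalamus divided the libraries another way, with sums over 15 markers of 285, 922, 164 and 566 CPM in High Activity males and 153, 526, 180 and 403 CPM in Low Activity males. For 13 of the 15 markers, libraries 6, 8, 14 and 16 all lay above the other libraries, so that each strain had a pair of libraries with more thalamic RNA. Shox2, a transcription factor gene of thalamic neurons, showed the widest spread, at 2.46, 33.3, 0.451 and 18.9 CPM in High Activity males against 0.0398, 14.6, 0.703 and 10.1 CPM in Low Activity males. Of the 15 markers 1 rose (Zic4), which DESeq2 and limma-voom did not call. Leaving out single libraries gave 0 to 6 called higher, 6 without library 7 and 3 without library 5, and without library 6 the count was 0 and the median 0.01. It was 9 without libraries 5, 7, 13 and 15, and without libraries 6 and 8 the list gave 0 higher and 1 lower. Without libraries 6, 8, 14 and 16, the libraries with the most thalamic RNA, it gave 4 higher and 0 lower, with a median of 0.44.

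Ttr, which encodes the thyroid hormone carrier that the choroid plexus secretes, was at 3185, 3291, 4982 and 2156 CPM in High Activity males and 1200, 1232, 3303 and 660 CPM in Low Activity males. Its log2 fold change was 1.09 (SE 0.50, edgeR adjusted p = 0.263), and the groups overlapped through library 15. All 17 choroid plexus markers had a positive log2 fold change, with a median of 0.70, and 0 of them were called by edgeR, limma-voom or DESeq2, with 4 at an unadjusted p under 0.05 in edgeR. That count depends on library 15, since without it 5 of the 17 rose and the median was 1.24. It was 1 without libraries 6 and 8 and 3 without libraries 5, 7, 13 and 15. Markers of red blood cells were higher in High Activity males, with the lowest sum in library 13. Hbb-bs, a beta globin gene of red blood cells, was at 305, 272, 286 and 267 CPM in High Activity males and 76.7, 167, 163 and 156 CPM in Low Activity males, with library 13 lowest (log2 fold change 1.01, SE 0.22, edgeR adjusted p = 0.00325). Of 6 erythrocyte markers 4 rose (Hbb-bs, Hbb-bt, Hba-a1 and Hba-a2), 2 without library 13 and 2 without library 5. Among protein-coding genes of at least 1 CPM, 5.18% were called higher. For 5 of the 6 markers all High Activity values lay above all Low Activity values, against 5.99% of all protein-coding genes. Hbb-bs and Hbb-bt kept their calls in all 21 settings, while Hba-a1 lost its call in 8 and Hba-a2 in 6.

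A further signal appeared in the check of single libraries. Amy2a5, the gene of pancreatic amylase, was at 0 in all High Activity males and at 44.0, 1.38, 0 and 0.110 CPM in Low Activity males, so that its call (edgeR adjusted p = 0.0211) rests on library 13. A list of 20 genes of the acinar cells of the pancreas, written after this value was seen, gave sums of 26.5, 4.32, 3.82 and 4.35 CPM in High Activity males and 119, 43.8, 2.59 and 3.57 CPM in Low Activity males. Without Amy2a5 itself the sums of libraries 13 and 14 were 75.0 and 42.4 CPM, and those of High Activity males did not change. In the females of the series the sum with Amy2a5 was 65.1 CPM in 1 High Activity library, 17.8 CPM in 1 Low Activity library and 2.49 to 3.66 CPM in the others. Without Amy2a5 the first was 59.6 CPM and the second 12.4 CPM. All 19 measured genes of that list, Amy2a5 included, were highest in library 13, and 14 of them followed it in the order library 14, library 5 and then the rest. Pnlip, the pancreatic lipase gene, was at 3.06, 0.282, 0.205 and 0.0427 CPM in High Activity males and at 10.1, 5.98, 0.111 and 0.110 CPM in Low Activity males. Xist, the RNA that silences an X chromosome in female cells, was at 7.91, 5.96, 0.738 and 0.427 CPM in High Activity males and at 11, 0.629, 0.370 and 0.294 CPM in Low Activity males, against 621 to 805 CPM in the females of the series. Library 13 is thus the male library with the most acinar RNA and the most Xist, while library 14 has the first without the second and library 6 the second without the first. The part of this RNA in the results below was not tested, apart from the fits without these libraries that are given beside a result.

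**Figure D1:**
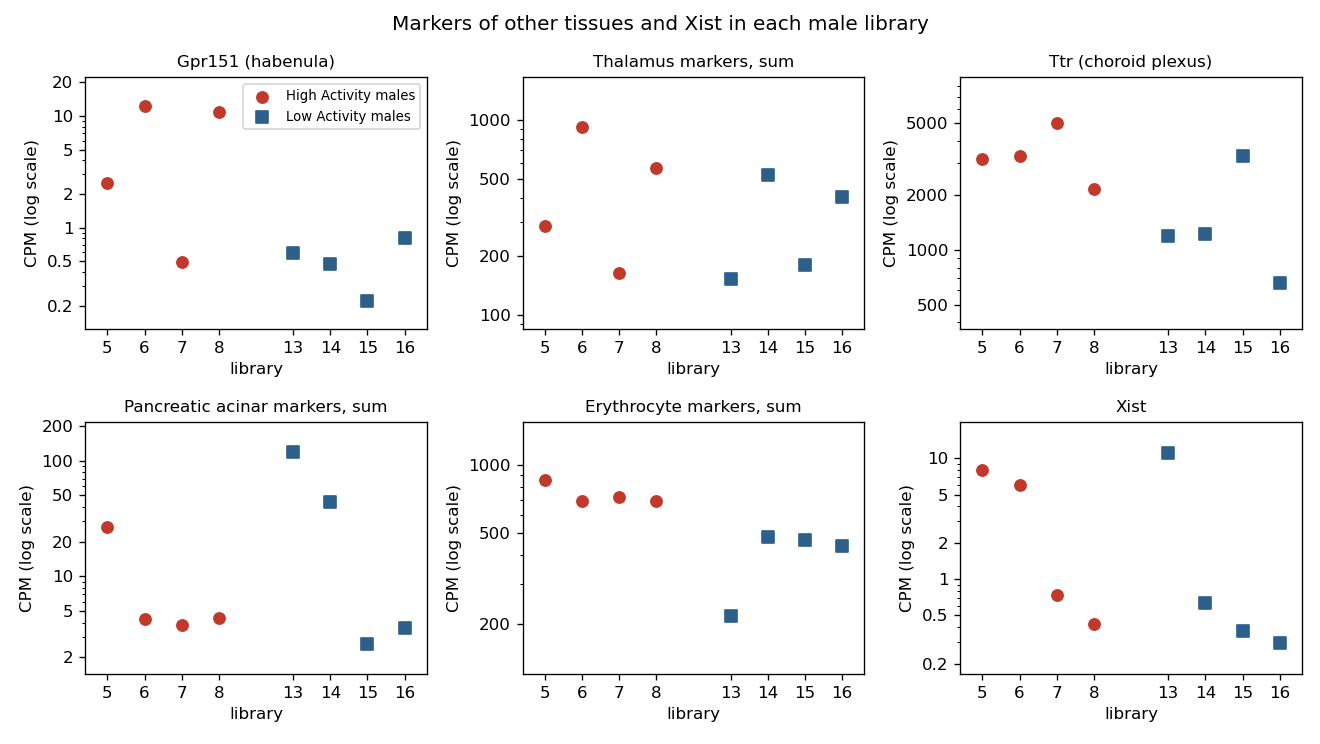
CPM on a log axis in each of the 8 male libraries for Gpr151, Ttr and Xist and for the sums of thalamus, pancreatic acinar and erythrocyte markers; circles are High Activity males and squares Low Activity males. Libraries 6 and 8 are highest for Gpr151 (12.3 and 10.9 CPM), libraries 6, 8, 14 and 16 for the thalamus, and library 13 is highest for acinar markers (119 CPM, or 75.0 CPM without Amy2a5) and for Xist (11 CPM, with libraries 5 and 6 next at 7.91 and 5.96 CPM) and lowest for erythrocyte markers.

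High Activity males differed from Low Activity males in 1930 genes, with 890 higher and 1040 lower (6.04% of the 31960 genes tested, 2.78% higher and 3.25% lower). Of 18915 protein-coding genes, 754 rose (3.99%) and 886 fell (4.68%). Most differences were small. Over the 1640 called protein-coding genes (8.67% of those tested) the absolute log2 fold change had a median of 0.38, 1024 of them moved by less than 0.5 and 257 by at least 1. For 1400 of the 1640 the 4 High Activity values all lay beyond the 4 Low Activity values. That was so, whether called or not, of 5.99% of protein-coding genes with High Activity males above and of 7.27% with High Activity males below. Among all genes, 3046 had groups that did not overlap (9.53%), with 1409 above (4.41%) and 1637 below (5.12%) in High Activity males. The count of calls was 1362 without High Activity males 6 and 8, 1234 without the libraries with the most thalamic RNA in both strains (6, 8, 14 and 16) and 1275 without the libraries with acinar RNA (5, 13 and 14).

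**Figure D2:**
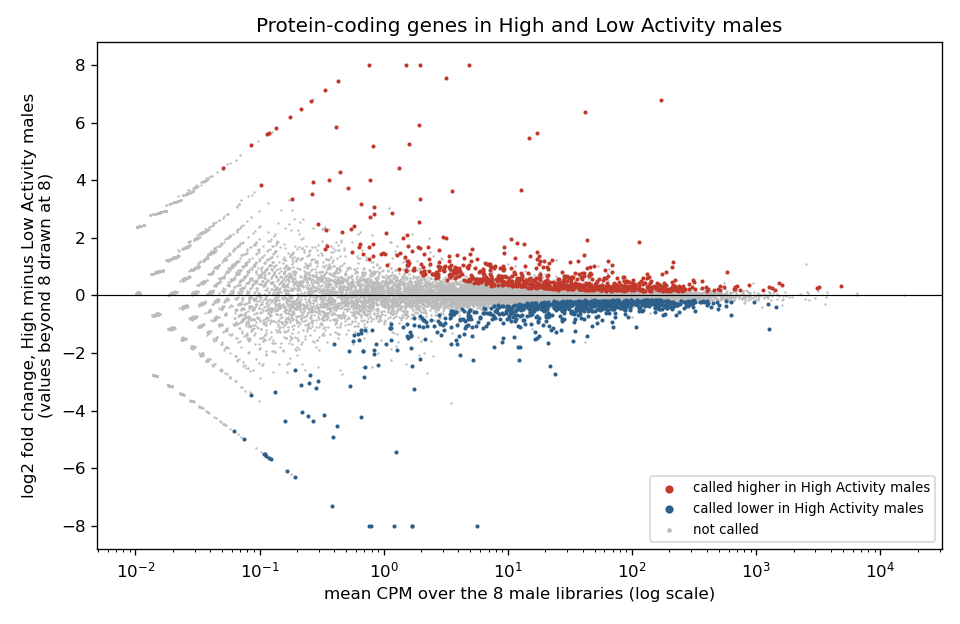
High minus Low log2 fold change in males against mean CPM over the 8 libraries (log axis) for protein-coding genes above 0.01 CPM, with called genes in color. Called genes lie on both sides of 0, 754 higher and 886 lower in High Activity males, most of them within 0.5 of 0, and the few genes beyond 8, drawn at 8, include those with no count in one strain.

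The largest increases included genes with a high level in one strain and a level near 0 in the other. Rps2, which encodes a protein of the small ribosomal subunit and lies at chr17:24718116-24721929 (GRCm38), was at 346, 323, 348 and 344 CPM in High Activity males and 3.46, 2.79, 2.88 and 3.17 CPM in Low Activity males (log2 fold change 6.79, SE 0.19, edgeR adjusted p = 1.6e-19). Tpm3-rs7, a tropomyosin-related gene at chr14:113314608-113316754, was at 79.4 to 85.4 CPM against 0.629 to 1.34 CPM, and Map3k13, a kinase of the JNK signaling pathway at chr16:21794346-21933439, at 27.0 to 30.5 CPM in High Activity males against 0.477 to 0.847 CPM in Low Activity males. Their log2 fold changes were 6.37 (SE 0.16) and 5.46 (SE 0.14). In each of these genes the gap between the strains was many times the spread within a strain. Amd2, which encodes an enzyme of polyamine synthesis, rose by 3.66 (SE 0.16) and Trim12a, a member of the TRIM family of antiviral genes, by 5.27 (SE 0.39). Rps2, Tpm3-rs7 and Amd2 have near-identical copies elsewhere in the genome, so their levels depend on how shared reads were divided and are uncertain.

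Onecut1, a transcription factor gene of early neurons at chr9:74861921-74891781, was at 2.95, 3.38, 3.73 and 3.16 CPM in High Activity males and 0.517, 0.983, 0.444 and 0.294 CPM in Low Activity males (log2 fold change 2.56, SE 0.30, edgeR adjusted p = 9.5e-07). Capn11, a calpain protease gene, varied more, at 5.73, 0.986, 0.410 and 3.03 CPM in High Activity males against 0.0398, 0.393, 0 and 0.0368 CPM in Low Activity males, and it was not called by limma-voom. Of the other genes among the 10 largest increases, Gvin1 had no count in Low Activity males and is described with such genes, and Pou4f1 and Chrnb4 are habenula markers. Pou4f1, a transcription factor gene of habenular neurons, was at 1.37, 6.71, 0.328 and 6.79 CPM in High Activity males and at 0, 0.157, 0.0740 and 0 CPM in Low Activity males, and Chrnb4, a nicotinic receptor subunit gene, at 0.739, 5.96, 0.738 and 6.79 CPM against 0.159, 0.315, 0.259 and 0.626 CPM. Both were highest in libraries 6 and 8. Without those libraries Pou4f1 was still called and Chrnb4 was not.

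Among the genes lower in High Activity males, Mcm6, a helicase subunit of DNA replication at chr1:128331590-128359664, was at 4.75, 3.24, 4.23 and 4.70 CPM in High Activity males and 23.4, 20.1, 20.4 and 17.3 CPM in Low Activity males (log2 fold change -2.25, SE 0.13, edgeR adjusted p = 2.2e-12). Prss41, a serine protease gene at chr17:23836785-23844172, was at 0, 0.141, 0.0821 and 0 CPM against 2.19, 2.12, 3.07 and 2.54 CPM in Low Activity males (log2 fold change -5.46, SE 0.48). Slc39a2, a zinc transporter gene, was at 1.35 to 1.71 CPM in High Activity males and 5.67 to 7.36 CPM in Low Activity males. None of these ranges overlapped, which the choice of these genes required. Pcdhga11, one of the clustered protocadherins by which neurons recognise each other, fell by 2.45 (SE 0.10), and its isoforms share their last exons with neighbouring genes of the cluster. Mylk3, a myosin kinase gene, fell by 3.24 (SE 0.33), Bspry by 2.45 (SE 0.34), the chemokine gene Ccl19 by 1.90 (SE 0.32) and the carbohydrate kinase gene Fggy by 1.83 (SE 0.31). The last members of this group, Gbp2b and Gbp6, belong to the interferon-inducible genes.

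**Figure D3:**
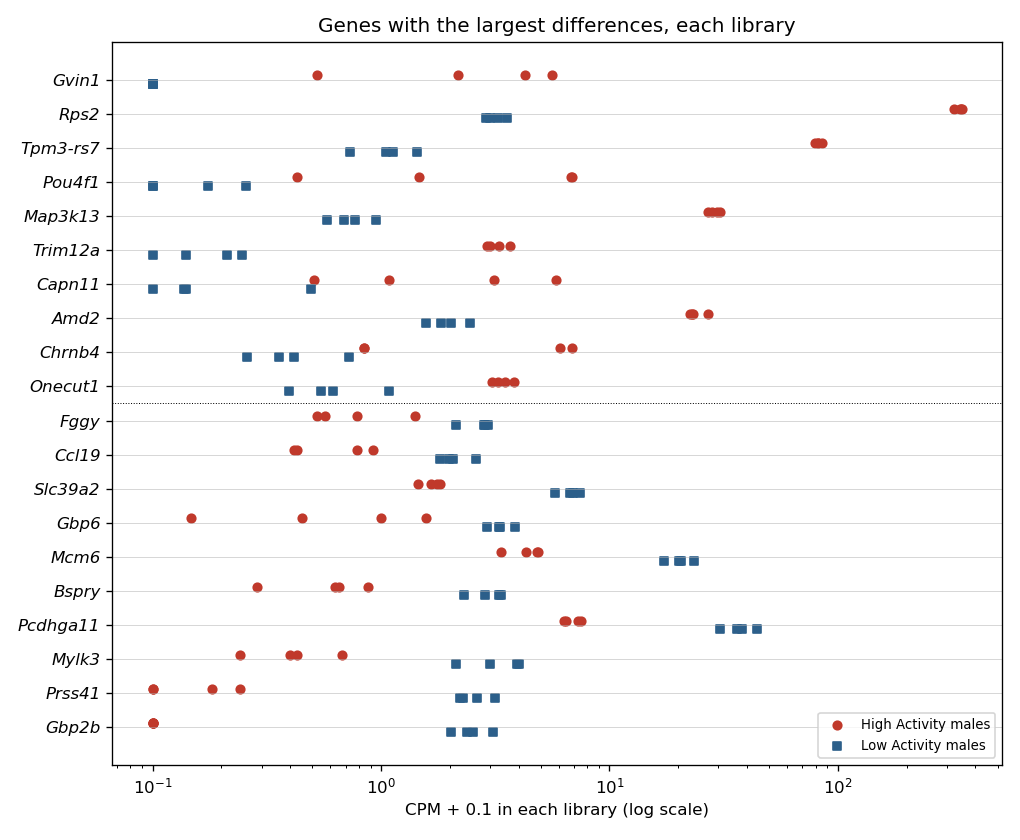
CPM plus 0.1 on a log axis in each library for the 10 protein-coding genes with the largest increases (above the dotted line) and the 10 with the largest decreases in High Activity males; circles are High Activity males and squares Low Activity males. The strains do not overlap in any of the genes, which the choice of genes required, and Pou4f1 and Chrnb4 are spread within High Activity males because libraries 6 and 8 are high.

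In all, 20 genes had at least 10 counts in every male of one strain and 0 in every male of the other, 10 in each direction. Gvin1, a large interferon-inducible GTPase gene, had 59, 89, 134 and 10 counts in High Activity males and 0 in Low Activity males, which is at least 104-fold higher against a floor of 3 counts over the group. Sycp1, a gene of the synaptonemal complex of meiosis, had 45, 26, 56 and 22 counts in High Activity males (at least 53.3-fold higher than the 0 counts of Low Activity males). Gbp2b ran the other way, with 0 counts in every High Activity male and 75, 58, 52 and 66 counts in Low Activity males (a level at least 78.0-fold lower). Of the 20, 3 of the genes present in High Activity males and 1 of those present in Low Activity males were protein-coding. Most of the others were annotated as processed pseudogenes, that is, copies of a messenger RNA inserted in the genome. Atp6v0c-ps2 had 1798, 1801, 1697 and 1848 counts in Low Activity males and 0 in High Activity males, and Rps3a2 had 1238, 947, 1094 and 1105 counts in High Activity males and 0 in Low Activity males. Their counts share reads with the parent genes and are uncertain.

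Immediate early genes were lower in High Activity males. Of 35 measured, 13 fell and 0 rose, against 6.1% called lower among protein-coding genes of at least 1 CPM, 34 had a negative log2 fold change, and their median was -0.39, where the median of all protein-coding genes was 0.00. For 12 of the 35 all High Activity values lay below all Low Activity values, against 7.27% of all protein-coding genes. Fosb, whose product pairs with Jun proteins, was at 10.1, 7.09, 6.52 and 7.47 CPM in High Activity males and 16.3, 14.2, 16.6 and 18.4 CPM in Low Activity males (log2 fold change -1.07, SE 0.15, edgeR adjusted p = 1.3e-05). Fosl2, another Fos family gene, was at 43.3, 41.0, 39.5 and 36.7 CPM against 62.4, 60.2, 68.4 and 73.0 CPM in Low Activity males (log2 fold change -0.72, SE 0.11, edgeR adjusted p = 3.3e-05). In both genes the groups were well apart. Jun fell by 0.37 (SE 0.07) and Egr3 by 0.31 (SE 0.09). Atf3, a stress-induced transcription factor gene, was at 0.844, 0.704, 0.779 and 1.24 CPM in High Activity males and 3.38, 2.04, 3.07 and 1.10 CPM in Low Activity males, with library 16 of the Low Activity males inside the High Activity range.

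The members of this list grouped as effectors rather than transcription factors moved the same way, with 8 of 18 called lower. Scg2, a granin of secretory vesicles, was at 146, 167, 129 and 144 CPM in High Activity males and 225, 194, 187 and 209 CPM in Low Activity males (log2 fold change -0.47, SE 0.07, edgeR adjusted p = 4.9e-05). Inhba, which encodes a subunit of activin, was at 10.6, 5.82, 8.49 and 8.5 CPM against 17.4, 13.4, 15.1 and 12.8 CPM in Low Activity males (log2 fold change -0.81, SE 0.14, edgeR adjusted p = 2.6e-04). Bdnf, a neurotrophin gene, was at 41.3, 33.7, 38.6 and 36.0 CPM in High Activity males and 60.9, 44.8, 48.9 and 55.6 CPM in Low Activity males (log2 fold change -0.49, SE 0.10, edgeR adjusted p = 0.0022). None of these ranges overlapped. Homer1, a scaffold of glutamate receptors, fell by 0.46 (SE 0.11), and Ier5, Gadd45b, Dusp5 and Nptx2 fell too.

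The most familiar genes of this kind did not pass the test. Fos was at 17.6, 11.2, 6.81 and 17.2 CPM in High Activity males and 15.4, 17.6, 22.9 and 21.7 CPM in Low Activity males (log2 fold change -0.55, SE 0.20, edgeR adjusted p = 0.115). Arc, whose product removes AMPA receptors from synapses, was at 201, 49.4, 60.8 and 133 CPM against 141, 155, 199 and 178 CPM in Low Activity males (log2 fold change -0.59, SE 0.26, edgeR adjusted p = 0.229). Library 5 was the highest of the High Activity males in 25 of the 35 genes, and in Arc it exceeded every Low Activity male. Without library 5, 20 of the 35 genes fell and 0 rose. The count of genes called lower was 11 without libraries 6 and 8, 13 without libraries 6, 8, 14 and 16, 18 without libraries 5, 13 and 14, and 10 at the lowest, in limma-voom and without library 13.

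High Activity males had lower levels of several inducible heat shock genes, while their constitutive relatives did not pass the test. Of 28 chaperone genes and factors, 8 fell and 0 rose, against 6.1% called lower among protein-coding genes of at least 1 CPM, with a median log2 fold change of -0.11. The 8 were 3 of 4 inducible HSP70 and HSP110 genes (Hspa1a, Hspa1b and Hsph1), 3 of 12 HSP40 genes and cochaperones (Dnajb1, Bag3 and Dnajb5) and 2 of 4 small heat shock genes (Hspb1 and Hspb8). HSF1 binds heat shock elements, arrays of the unit GAA in alternating orientation. The 250 bases before the start of the 4 called genes that hold a pair of such units are shown in lower case, with the pair (GAANNTTC or TTCNNGAA, which are read on either strand) in capitals, to set the sequence to which this factor can bind beside the levels. Sequences are from RefSeq (GRCm38.p6), on the strand of the gene and 5′ to 3′, for Hspa1a at chr17:34972157-34972406, Hspa1b at chr17:34959239-34959488, Hsph1 at chr5:149636337-149636586 and Hspb1 at chr5:135887669-135887918.
Hspa1a: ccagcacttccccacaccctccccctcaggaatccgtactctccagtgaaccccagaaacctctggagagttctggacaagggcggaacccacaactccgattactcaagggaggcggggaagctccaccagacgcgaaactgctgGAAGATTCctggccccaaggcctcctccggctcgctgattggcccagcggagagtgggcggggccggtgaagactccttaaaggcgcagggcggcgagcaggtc
Hspa1b: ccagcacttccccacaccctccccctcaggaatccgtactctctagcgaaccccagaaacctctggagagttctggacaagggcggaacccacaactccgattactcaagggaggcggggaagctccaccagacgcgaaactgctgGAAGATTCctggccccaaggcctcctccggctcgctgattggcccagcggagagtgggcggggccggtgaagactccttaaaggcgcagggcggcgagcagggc
Hsph1: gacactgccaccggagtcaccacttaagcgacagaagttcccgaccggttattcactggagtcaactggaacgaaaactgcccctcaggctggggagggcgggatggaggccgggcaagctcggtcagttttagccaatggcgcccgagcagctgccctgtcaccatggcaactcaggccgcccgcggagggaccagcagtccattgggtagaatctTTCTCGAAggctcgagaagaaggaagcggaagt
Hspb1: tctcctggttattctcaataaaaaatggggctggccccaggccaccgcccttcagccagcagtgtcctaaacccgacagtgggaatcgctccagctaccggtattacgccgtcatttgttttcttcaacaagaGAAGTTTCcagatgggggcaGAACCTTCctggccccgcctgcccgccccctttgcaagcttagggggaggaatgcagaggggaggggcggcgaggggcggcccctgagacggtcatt

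The windows of Hspa1a and Hspa1b differ at 3 of 250 bases, and Hspb1 holds 2 pairs. A pair was found in 4 of 8 matched genes called lower, in 6 of 15 matched members not called, and in 12.8% of all 32851 windows of this length. An array of 3 units, in which a further unit follows the pair after any 2 bases, was in 0 of the 8 and 2 of the 15, against 0.466% of all windows. These matches describe letters in a window and are not measured binding sites. The element TGACGTCA, to which CREB binds in many immediate early genes, was in the window of 1 of 11 matched immediate early genes called lower (Scg2) and of 2 of 15 not called, against 1.55% of all windows. In all these counts a gene with several starts was scored on any of its windows, whereas the shares are of single windows. Such a gene had more chances of a match, so counts and shares are not fully alike.

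Hspa1b, the inducible HSP70 gene with the larger change, was at 18.6, 8.17, 12.4 and 11.3 CPM in High Activity males and 21.4, 27.8, 28.8 and 25.8 CPM in Low Activity males (log2 fold change -1.03, SE 0.15, edgeR adjusted p = 2.5e-05). Its near-identical neighbour Hspa1a was at 15.6, 11.1, 12.5 and 11.5 CPM against 19.9, 21.6, 22.9 and 20.9 CPM in Low Activity males (log2 fold change -0.74, SE 0.09, edgeR adjusted p = 3.6e-06). The pair can share reads, so the split between them is uncertain, but in each the groups did not overlap. Hsph1, an HSP110 gene whose product recharges HSP70, was at 263, 249, 244 and 248 CPM in High Activity males and 316, 309, 325 and 310 CPM in Low Activity males (log2 fold change -0.33, SE 0.04, edgeR adjusted p = 1.1e-05). Dnajb1, the HSP40 partner of HSP70, was at 44.2, 42.4, 33.3 and 37.5 CPM against 55.6, 57.4, 55.3 and 58.1 CPM in Low Activity males (log2 fold change -0.52, SE 0.07, edgeR adjusted p = 1.2e-05). Bag3, a cochaperone of HSP70, fell by 0.71 (SE 0.11) and the small heat shock gene Hspb8 by 0.73 (SE 0.13), again with no overlap, whereas the ranges of Hspb1 and Dnajb5 overlapped.

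Of 6 constitutive members (Hspa8, Hspa4, Hsp90aa1, Hsp90ab1, Hspd1 and Hspe1), edgeR called 0, with 2 at an unadjusted p under 0.05 and a median of -0.04. Hspa8 was at 828, 864, 767 and 842 CPM in High Activity males and 849, 827, 837 and 860 CPM in Low Activity males (log2 fold change -0.03, SE 0.05, edgeR adjusted p = 0.807). Hsp90ab1 was lower in each High Activity male than in any Low Activity male, by a small amount (log2 fold change -0.13, SE 0.05, edgeR adjusted p = 0.113). Hsf1, the gene of the factor itself, was at 29.3 to 32.4 CPM in High Activity males and 27.6 to 30.2 CPM in Low Activity males (log2 fold change 0.11, SE 0.07, edgeR adjusted p = 0.485). DESeq2 called 1 of the 28 higher. The number of these 28 genes called lower was 6 to 8 under each alternative tried, and it was 7 without libraries 6 and 8, 8 without libraries 6, 8, 14 and 16, and 8 without libraries 5, 13 and 14.

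**Figure D4:**
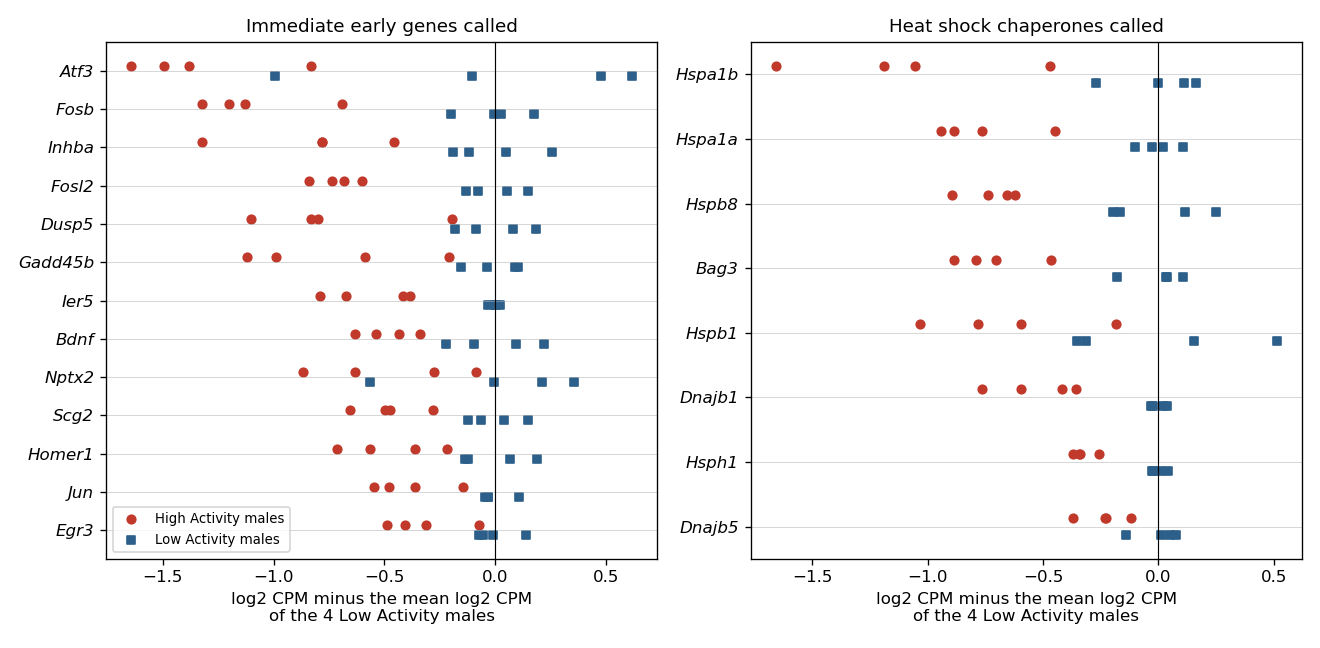
Log2 CPM of each library minus the mean log2 CPM of the 4 Low Activity males for the 13 immediate early genes and the 8 heat shock genes called; circles are High Activity males and squares Low Activity males. High Activity values lie left of 0, and the groups overlap in Atf3, Nptx2, Hspb1 and Dnajb5 among the genes drawn.

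Chaperones of the endoplasmic reticulum were among the genes that fell. Of 21 genes of the unfolded protein response 5 fell and 1 rose, with a median of -0.11. The shares among protein-coding genes of at least 1 CPM were 6.1% called lower and 5.18% higher. Hspa5, the main HSP70 of that compartment, was at 249, 208, 209 and 222 CPM in High Activity males and 282, 314, 301 and 296 CPM in Low Activity males (log2 fold change -0.43, SE 0.08, edgeR adjusted p = 5.0e-04). Sdf2l1, Manf, Xbp1 and Herpud1 fell as well, and Atf4, a transcription factor gene of the integrated stress response, rose by 0.34 (SE 0.07). Without libraries 6, 8, 14 and 16, 1 of the 21 rose and 1 fell, and without libraries 5, 13 and 14, 1 rose and 3 fell. Of 18 glucocorticoid receptor and target genes 2 fell and 1 rose. Nr3c2, the mineralocorticoid receptor gene, was at 204, 133, 202 and 175 CPM against 306, 223, 220 and 215 CPM in Low Activity males (log2 fold change -0.43, SE 0.10, edgeR adjusted p = 0.00877), and it was not called without library 13, without libraries 6 and 8, or with the males fitted alone. Among 18 circadian clock genes edgeR and limma-voom called 0 (edgeR gave 5 an unadjusted p under 0.05) and DESeq2 called 2 lower, and the median was -0.05. With other settings edgeR called some too. It called 2 lower with the filterByExpr filter, 3 lower without libraries 6 and 8, and 1 higher and 2 lower without library 5. Without libraries 6, 8, 14 and 16 it called 0.

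Interferon-inducible genes changed in both directions. Of 31 measured, 9 fell and 4 rose, against 6.1% and 5.18% of protein-coding genes of at least 1 CPM. Those that fell included genes induced by type I interferon. Ifit3, an antiviral gene, was at 1.27, 2.16, 1.89 and 1.24 CPM in High Activity males and 6.41, 4.25, 4.33 and 6.11 CPM in Low Activity males (log2 fold change -1.69, SE 0.29, edgeR adjusted p = 2.8e-04). Irf9, the DNA-binding part of the factor that drives these genes, was at 8.02, 8.31, 7.55 and 6.58 CPM against 11.7, 11.2, 10.8 and 13.4 CPM in Low Activity males (log2 fold change -0.63, SE 0.11, edgeR adjusted p = 2.7e-04). Neither pair of ranges overlapped. Ifit1, Ifitm3, Oasl2 and Usp18 fell as well. The guanylate-binding GTPases divided, since Gbp6 fell by 2.21 (SE 0.45) and Gbp3 by 0.87 (SE 0.19), while Gbp4 rose by 1.58 (SE 0.31), and Irgm2 of a related GTPase family rose by 0.88 (SE 0.20). These families hold similar genes that can share reads, so single members are uncertain. Of the 31 genes, 7 fell in limma-voom, 10 without library 7, 5 without libraries 5, 13 and 14, and 5 without libraries 6, 8, 14 and 16. In each of these fits 4 rose. Without libraries 5, 7, 13 and 15, 8 fell and 2 rose. Of 15 genes of MHC class I presentation 1 fell, H2-D1, by 0.27 (SE 0.08), and 0 were called in limma-voom, without libraries 6 and 8, or without any one of libraries 7, 8, 14, 15 and 16.

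Several markers of microglia, the immune cells of the brain, were lower in High Activity males. Of 15 markers 4 fell and 1 rose, with a median of -0.17, against 6.1% called lower and 5.18% higher among protein-coding genes of at least 1 CPM. Fcrls, a receptor gene of resident microglia, was at 7.95, 10.6, 9.60 and 8.33 CPM in High Activity males and 27.2, 24.3, 26.3 and 22.7 CPM in Low Activity males (log2 fold change -1.47, SE 0.09, edgeR adjusted p = 3.6e-12). C1qb, a chain of complement C1q, was at 27.5, 24.6, 29 and 26.6 CPM against 34.9, 41.0, 43.5 and 46.9 CPM in Low Activity males (log2 fold change -0.63, SE 0.09, edgeR adjusted p = 2.1e-05), and C1qc fell by 0.63 (SE 0.09) too. Tmem119 fell by 0.30 (SE 0.08), and Gpr34, a receptor gene of the same cells, rose by 0.34 (SE 0.10). The call of Gpr34 was lost in 11 of 21 settings, limma-voom and the length and GC offset among them, and that of Tmem119 in 4, including the fit without libraries 6 and 8. The summed level of the 15 markers was 465 to 524 CPM in High Activity males and 518 to 575 CPM in Low Activity males, so the sums overlapped, as did 7 of the 15 single markers.

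Of 13 mitochondrially encoded subunits of the respiratory chain 5 rose and 0 fell (median 0.11), against 5.18% called higher among protein-coding genes of at least 1 CPM. mt-Nd1, a subunit of complex I, was at 5136, 5048, 5946 and 5549 CPM in High Activity males and 4221, 4049, 4390 and 4564 CPM in Low Activity males (log2 fold change 0.33, SE 0.06, edgeR adjusted p = 9.6e-04), and mt-Nd2, mt-Nd3, mt-Nd6 and mt-Atp8 rose as well. The call of mt-Nd2 was lost without libraries 5, 13 and 14 and under the offset for transcript length and GC content, and that of mt-Atp8 in limma-voom and without libraries 6, 8, 14 and 16. mt-Co3 was at 36.5, 0.141, 44.5 and 0.128 CPM against 20.6, 40.8, 116 and 76.8 CPM in Low Activity males, with libraries 6 and 8 near 0, and its reads are shared with a near-identical copy in the nuclear genome. Of the nuclear subunits, 4 of 36 of complex I rose, 2 of 27 of complexes II, III and IV, and 1 of 15 of ATP synthase, and 0 fell. Ndufa3, an accessory subunit of complex I, was at 73.1, 66.4, 69.5 and 76.9 CPM in High Activity males and 55.7, 58.9, 57.3 and 61.4 CPM in Low Activity males (log2 fold change 0.29, SE 0.06, edgeR adjusted p = 0.00134), without overlap. In the fit without libraries 6 and 8, 2 of the 36 complex I genes rose and 1 fell, 0 of the 27 were called, and of the 15 ATP synthase genes 0 rose and 1 fell.

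A minority of ribosomal protein genes rose. Of 77 cytosolic ribosomal protein genes 18 rose and 1 fell, 70 had a positive log2 fold change, and the median was 0.14, with 58 not called. Among protein-coding genes of at least 1 CPM, 5.18% were called higher and 6.1% lower. Apart from Rps2, the largest change was that of Rpl26, at 164, 188, 166 and 192 CPM in High Activity males and 48.5, 46.7, 46.2 and 53.6 CPM in Low Activity males (log2 fold change 1.86, SE 0.07, edgeR adjusted p = 1.8e-17). Rps29 rose by 0.48 (SE 0.09), and Rplp0, a stalk protein, fell by 0.41 (SE 0.06). All have processed copies that can take reads. Library 8 was the highest of the High Activity males in 63 of the 77 genes and library 16 the highest of the Low Activity males in 73, and the number called higher followed single libraries. It was 6 without library 8, 8 without library 13, 9 without library 14, 29 without library 7 and 32 without library 16, and it was 4 without libraries 6 and 8. Short transcripts as a whole were slightly higher in High Activity males. The median log2 fold change was 0.06 over 476 protein-coding genes whose longest transcript was up to 1 kb and -0.06 over 908 genes over 8 kb, and with an offset for length and GC content these medians were 0.03 and -0.02.

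Receptor subunits for the main transmitters changed singly. Of 16 ionotropic glutamate receptor genes 1 rose and 1 fell, close to the 11.3% called in either direction among protein-coding genes of at least 1 CPM. Grin2b, an NMDA receptor subunit gene, was at 765, 572, 1009 and 613 CPM in High Activity males and 559, 385, 411 and 314 CPM in Low Activity males (log2 fold change 0.83, SE 0.14, edgeR adjusted p = 2.0e-04), just without overlap. Grik2, a kainate receptor subunit gene, was at 49.2, 43.9, 53.3 and 43.3 CPM against 65.9, 57.9, 65.5 and 58.1 CPM in Low Activity males (log2 fold change -0.38, SE 0.07, edgeR adjusted p = 5.0e-04). Of 15 GABA-A receptor subunit genes 3 fell and 1 rose. Gabrb2, a beta subunit gene, fell by 0.33 (SE 0.07), and Gabra3, an alpha subunit gene, rose by 0.41 (SE 0.12). Gabra3 lost its call in 9 of 21 settings, limma-voom and the fit without libraries 6 and 8 among them.

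Of 26 serotonin, dopamine and noradrenaline receptor genes 1 rose and 2 fell, close to the 11.3% called in either direction among protein-coding genes of at least 1 CPM. Htr3a, the ionotropic serotonin receptor gene of some interneurons, was at 5.17, 3.62, 4.59 and 4.10 CPM in High Activity males and 7.60, 7.67, 6.51 and 8.47 CPM in Low Activity males (log2 fold change -0.78, SE 0.17, edgeR adjusted p = 0.00434), and Drd1 fell by 0.66 (SE 0.18). Neither was called without libraries 6 and 8, where the list gave 2 higher and 0 lower, and Drd1 lost its call in 9 of 21 settings. Htr5b was at 6.08, 8.78, 5.05 and 8.03 CPM against 3.42, 2.83, 2.77 and 3.20 CPM in Low Activity males, and it is also a habenula marker, highest in libraries 6 and 8. It was still called without those libraries. Of 29 axon guidance genes, Robo1 rose by 0.42 (SE 0.09) and Robo3 fell by 0.76 (SE 0.12), and of 20 voltage-gated potassium channel genes 2 fell, among them Kcnh1 by 0.37 (SE 0.09), which was not called without libraries 6 and 8 or without library 13. With these counts neither the guidance nor the channel list exceeded the 11.3% share, but the counts varied between fits. The guidance list gave 1 higher and 5 lower without library 7, and 2 higher and 9 lower without libraries 5, 7, 13 and 15. Without libraries 6 and 8 it gave 3 higher and 1 lower. The channel list gave 0 higher and 4 lower without library 7, and 0 in either direction without library 13.

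Markers of the hippocampal cell types gave calls in both directions, beside 11.3% called among protein-coding genes of at least 1 CPM. In dentate granule cells, C1ql2, a synaptic organizer gene, was at 77.8, 60.8, 63.6 and 63.2 CPM in High Activity males and 37.1, 33.1, 29.9 and 29.7 CPM in Low Activity males (log2 fold change 1.03, SE 0.10, edgeR adjusted p = 6.6e-08). Dsp, the desmoplakin gene that marks the same cells, was at 52.2, 30.8, 42.1 and 37.1 CPM against 80.2, 63.9, 81.0 and 67.6 CPM in Low Activity males (log2 fold change -0.85, SE 0.12, edgeR adjusted p = 3.3e-05), and Lct fell by 0.54 (SE 0.14), a call lost in DESeq2, in limma-voom and without libraries 6 and 8. So 1 marker of these cells rose and 2 fell, out of 10. In CA1, 1 of 8 markers rose (Wfs1, by 0.44, SE 0.08), and in CA2 and CA3, 2 of 13 rose (among them Amigo2, by 0.39, SE 0.10, lost in 8 of 21 settings). Among interneuron genes 1 of 12 fell, the cannabinoid receptor gene Cnr1, by 0.37 (SE 0.09), and it was not called without library 13 or without libraries 6 and 8.

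Of other cell types, 3 of 13 astrocyte markers rose. For this and the lists below, 5.18% were called higher and 6.1% lower among protein-coding genes of at least 1 CPM. Aldh1l1, a folate enzyme of astrocytes, was at 41.1, 47.1, 44.3 and 47.5 CPM in High Activity males and 34.8, 34.6, 36.0 and 34.4 CPM in Low Activity males (log2 fold change 0.36, SE 0.06, edgeR adjusted p = 2.5e-04), and the glutamate transporter gene Slc1a2 and the gap junction gene Gja1 rose by 0.27 (SE 0.07) and 0.18 (SE 0.05). Gja1 lost its call in 10 of 21 settings, and 1 of the 13 rose without library 14 or without libraries 5, 13 and 14. Of 12 endothelial and mural markers 3 rose. Cldn5, the tight junction gene of the blood-brain barrier, was at 43.0, 44.5, 45.5 and 41.4 CPM in High Activity males and 33.4, 33.1, 33.2 and 35.2 CPM in Low Activity males (log2 fold change 0.37, SE 0.07, edgeR adjusted p = 0.00117), and Abcb1a and Tek rose too. The count was 7 of 12 without libraries 6 and 8, and without libraries 5, 13 and 14 it was 1 higher and 1 lower. Of 14 oligodendrocyte markers 1 rose (Opalin, by 0.57, SE 0.14, not called in limma-voom or without libraries 6 and 8), and 2 fell and 0 rose without library 13. Their summed level was 7347 to 9582 CPM against 7309 to 11805 CPM in Low Activity males. Of markers of other brain regions, 1 of 12 striatal markers rose (Tac1) and 1 fell (Drd1), 1 of 10 of neocortex and subiculum fell (Scnn1a), and among 10 of the hypothalamus, 9 of them under 1 CPM, edgeR, limma-voom and DESeq2 called 0, with 0 at an unadjusted p under 0.05. Tac1, Drd1 and Scnn1a each lost the call in the fit without libraries 6 and 8.

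**Figure D5:**
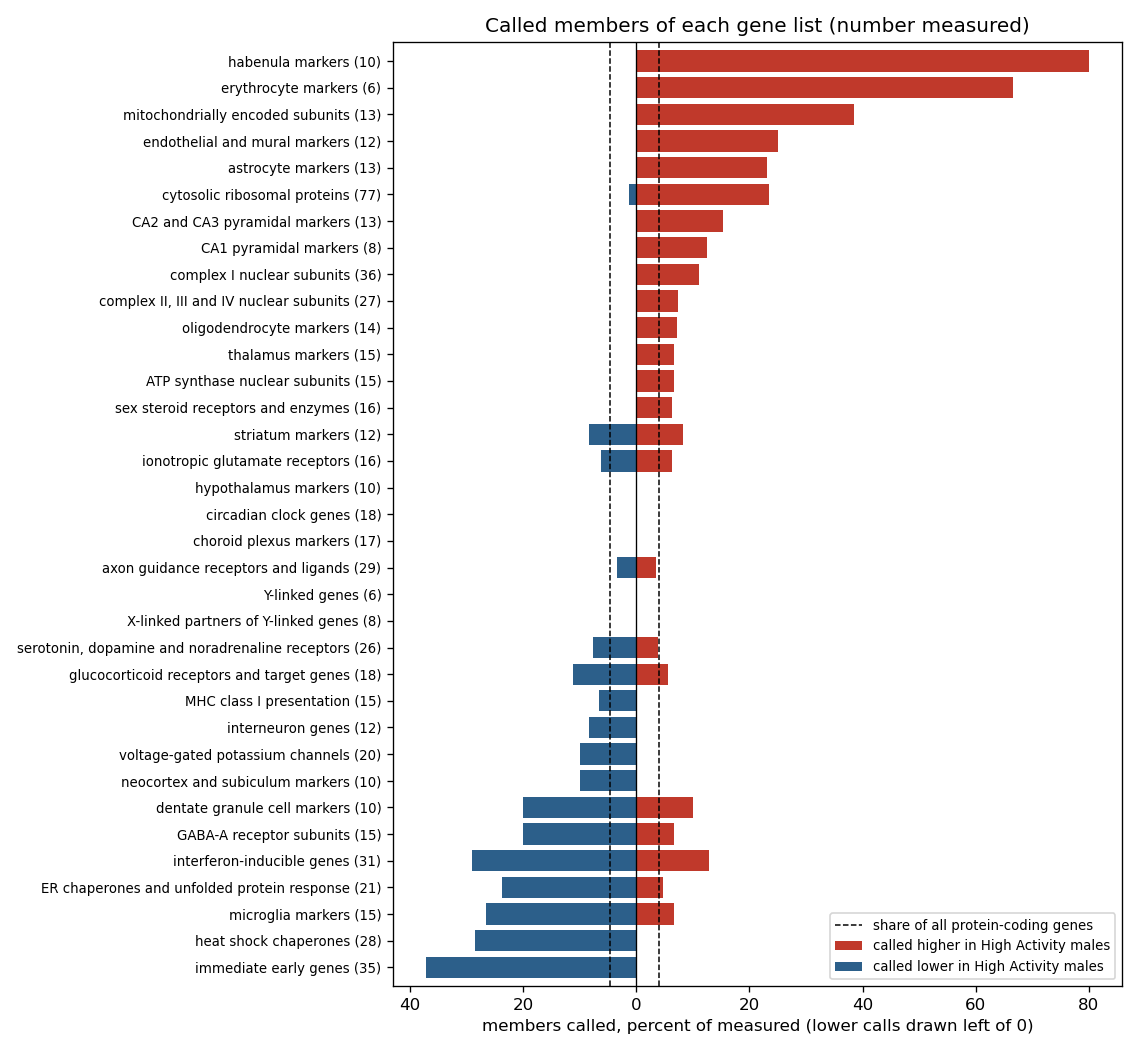
Percent of the measured members of each gene list called higher (right of 0) or lower (left of 0) in High Activity males, with the number measured in parentheses; dashed lines mark the shares of all protein-coding genes, 3.99% higher and 4.68% lower. Immediate early genes (13 of 35) and heat shock chaperones (8 of 28) have calls to the left only, and habenula (8 of 10), erythrocyte (4 of 6) and mitochondrially encoded (5 of 13) lists to the right only.

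Of 6 Y-linked genes of the list with a count, and of their 8 X-linked partners, edgeR, limma-voom and DESeq2 called 0, with 2 and 1 at an unadjusted p under 0.05 in edgeR. With the males fitted alone, edgeR called 1 of the 6 Y-linked genes higher (Eif2s3y). Of the 8 partners, 1 was called lower without library 7 and 1 without library 16. Eif2s3y, a translation factor gene of the Y chromosome, was at 31.1, 31.8, 30.3 and 32.1 CPM in High Activity males and 26.6, 18.1, 23.3 and 27.2 CPM in Low Activity males (log2 fold change 0.39, SE 0.17, edgeR adjusted p = 0.202), without overlap. Uty was below Low Activity males in each High Activity male (log2 fold change -0.29, SE 0.16). Outside the list, 2 of the 7 protein-coding genes of at least 1 CPM on the Y chromosome fell, Gm47283 by 1.10 (SE 0.09) and Gm21860 by 1.11 (SE 0.28). Of 16 sex steroid receptors and enzymes 1 rose, Akr1c14, whose product reduces steroids to neuroactive forms, at 3.55, 2.07, 3.20 and 2.69 CPM in High Activity males and 0.398, 1.18, 1.33 and 0.699 CPM in Low Activity males (log2 fold change 1.67, SE 0.30, edgeR adjusted p = 5.0e-04).

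The called genes lay on every chromosome. Among protein-coding genes of at least 1 CPM (11.3% called), the share called on an autosome ran from 8.02% on chromosome 7 to 18.1% on chromosome 8 and was 8.92% on chromosome X. On chromosome 8, 89 genes fell and 41 rose, and on chromosome 18, 23 fell and 42 rose. Over the 268 windows of 5 Mb with at least 20 such genes, the median share called was 9.84% and 18 windows held none. The highest share, 48.1%, was 13 of 27 genes on chromosome 17 from 5 to 10 Mb. From 170 to 175 Mb of chromosome 1, 24 of 53 genes were called, 19 of them higher in High Activity males, and from 70 to 75 Mb of chromosome 8, 32 of 85, of which 7 were higher.

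Many of the differences were also present between the females of the strains, which were separate mice and share no library with the males. Of the 1640 protein-coding genes called in males 810 were also called in females (49.4% of the male calls and 39.6% of the 2045 female calls), and 1 of the 810 had the opposite sign. Those 2045 female calls were out of 18915 protein-coding genes. Both sets of calls came from the same fit of all 16 libraries, with a shared estimate of the spread of each gene, so they are not fully independent. The test of the difference between the sexes called 0 genes in edgeR at an adjusted p under 0.05, with 3208 genes (10%) at an unadjusted p under 0.05, and 154 in DESeq2. The inducible HSP70 genes came closest among those named. Hspa1b had a log2 fold change of -1.03 in males and 0.09 in females, and Hspa1a of -0.74 in males and -0.04 in females, each with an adjusted p of 0.0886 for the difference in edgeR. For Fosb the values were -1.07 in males and -0.33 in females (edgeR adjusted p = 0.179 for the difference), and for Fcrls -1.47 and -1.67 (edgeR adjusted p = 0.618 for the difference).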

How the data were processed

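RNA of hippocampi was enriched for poly-A RNA and made into paired-end, strand-specific libraries, 1 per mouse. The authors trimmed reads, aligned them to mm10 with HISAT2 and estimated expected counts with RSEM, and they deposited these expected counts as whole numbers for 31960 genes, without normalization. Reads of both strains were aligned to 1 genome, so a strain's sequence variants can change its counts.

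CPM with TMM factors and quasi-likelihood tests came from edgeR 4.0.16 (R 4.3.3), fitted to the group means of all 16 libraries, with the male contrast tested and Benjamini-Hochberg adjustment over 31960 genes at 0.05. Genes were annotated from GENCODE M21 (61 identifiers missing). Alternatives were filterByExpr (17805 genes), RLE, upper-quartile or no factors, DESeq2 1.42.0 without independent filtering, limma-voom 3.58.1, the males alone, an offset for transcript length and GC content, adjustment over protein-coding genes, and fits without single libraries or without libraries 6 and 8. Fits without libraries 6, 8, 14 and 16, without 5, 7, 13 and 15, and without 5, 13 and 14 were added after seeing the data.

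The comparison and the 35 gene lists (645 genes, 5 missing) were chosen with earlier results of these data known, and the list of acinar genes after seeing the data. Named genes were the 10 largest called changes in each direction (protein-coding, at least 1 CPM, groups not overlapping, full symbol), up to 4 members of each list by smallest p and every called member of lists of up to 15, the sex and neighbouring tissue markers, up to 5 genes per direction at 0 in one strain, the 5 smallest p-values for the sex difference, and up to 3 deviating genes per library. Some genes that this rule selects are left out of the text. Other list members named, and genes on the Y chromosome outside the list, were chosen after their values were seen. Nothing says that replicates differ in more than the mouse, and counting error limits genes with few counts. Depth allowed 23108 to 24134 genes to be detected per male library. Replicates varied with a biological coefficient of variation of 10.6%.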

Additional observations from a re-analysis of the deposited data

Results flagged for a closer look

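Of 336 groups of 4 libraries that were checked, 31 held a library far from the other 3, where chance gives about 1 in 20, and 1 of the 31 is not reported here. Library 13 stood apart among Low Activity males in 8 genes. It was high in Xist (11 CPM against 0.294 to 0.629 CPM), Amy2a5 (44.0 against 0 to 1.38 CPM), Nr3c2 (306 against 215 to 223 CPM), Cnr1 (202 against 165 to 171 CPM), Cpne4 (147 against 123 to 126 CPM) and Stxbp6 (132 against 108 to 112 CPM), and low in Hbb-bs (76.7 against 156 to 167 CPM). It was also low in Tshz2 (31 against 56.5 to 60.2 CPM).

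Library 15 was high in Steap1 (3.99 CPM against 0.875 to 1.10 CPM) and Map3k15 (4.92 against 3.18 to 3.34 CPM), and low in Fggy (2.03 against 2.71 to 2.83 CPM) and Rasd2 (49.1 against 59.7 to 61.6 CPM). Library 16 was high in Gpr34 (14.8 CPM), Cldn5 (35.2 CPM), Uqcrb (63.1 CPM) and Atp5j2 (133 CPM), and low in Drd1 (3.72 CPM) and Clock (95.6 CPM). Library 14 was high in Rorb (24.9 against 19.7 to 20.2 CPM) and Capn11 (0.393 against 0 to 0.0398 CPM).

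Among High Activity males, library 5 was high in Hba-a1 (209 CPM against 146 to 157 CPM), Gad2 (138 against 113 to 115 CPM), Stxbp6 (105 against 96.0 to 96.7 CPM), C1ql2 (77.8 against 60.8 to 63.6 CPM) and Amd2 (26.9 against 22.4 to 23.1 CPM). Library 6 was high in the serotonin receptor gene Htr7 (16.7 against 8.86 to 9.76 CPM) and low in Rps2 (323 against 344 to 348 CPM) and Sult1a1 (3.33 against 4.48 to 4.68 CPM). Library 8 was low in Uba1y (0.213 against 0.369 to 0.387 CPM), and library 7 was high in Kdm5d (24.6 against 21.7 to 22.2 CPM).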

How the results depend on the processing

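No paired analysis was possible because the replicate numbers of the High and Low Activity males are library numbers that the groups do not share. Under the alternatives that keep all male libraries, 1382 to 2211 genes were called, against 1930. Leaving out each male library gave 1473 to 2239 genes, 1228 to 1933 protein-coding genes and 93 to 156 list members. Without libraries 6, 8, 14 and 16 the counts were 1234 genes and 1028 protein-coding genes, and without libraries 5, 13 and 14 they were 1275 and 1079, each from fewer libraries. The difference between the sexes, called for 0 genes, was called for 154 in DESeq2, 2 without libraries 6 and 8, 0 to 206 without each male library (206 without library 7, 101 without library 5 and 10 without library 13), 35 without libraries 5, 13 and 14, 891 without libraries 5, 7, 13 and 15 and 100 without libraries 6, 8, 14 and 16, and the cause was not tested. Genes at 0 in one strain numbered 34 with at least 5 counts in each library and 15 with at least 20, against 20 with at least 10. Of 177 named genes 102 were called, 53 of them under every alternative. Among named genes called in either fit, the sign turned for Slc5a7 (-0.0645 without libraries 6, 8, 14 and 16) and for Tnnt1 (-2.18) and Rab37 (-1.76) without libraries 6 and 8, and the cause was not tested. With 4 mice per group, small differences in genes of low level were not detectable at this depth.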
